A study of Arabidopsis thaliana with 6 samples.

Results

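In Arabidopsis thaliana seedlings grown in the dark, 60 of 22746 seedling probe sets were at least 2-fold lower in the pif1-2 mutant than in wild type by a rule on the deposited signals. A probe set was taken when its mean wild-type signal was 100 or more, when the mean of the 3 pif1-2 arrays was at most 0.5 of the mean of the 3 wild-type arrays, and when every pif1-2 value lay below every wild-type value. Of the 14736 probe sets bright enough to be eligible, 61 (0.414%) met the rule, and EXPA9, an expansin with a ratio of 0.486, was left out because expansin, XTH and plastid-encoded genes were not taken. The 60 were chosen by these same signals, so their ratios are given as a description and not as a test. The platform annotation gave 1 gene for 34 of the 60 and several genes for 1, and it did not list the other 25, among which an excluded gene could not be recognised by name.

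Wild type (Col-0) was compared with pif1-2, a line with an insertion in PIF1, and each group had 3 Affymetrix ATH1 arrays. Whole seedlings were used after 4 days of cold, 1 hour of light to start germination and 4 days at 21 °C in darkness, and both groups were handled alike per the labels. The labels report very low PIF1 mRNA in the mutant and a wild-type seedling about 2 mm taller. They call the replicates biological without saying whether seedlings came from separate cultures, so the spread between arrays may be partly technical. In whole seedlings, fewer cells of a type and less RNA per cell cannot be told apart.

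PIF1 belongs to the basic helix-loop-helix transcription factors. It accumulates in darkness and is removed after phytochrome is activated by light. It is known for restraining seed germination and the synthesis of chlorophyll precursors, and for promoting growth in the dark. A gene whose transcript is lower in the mutant can depend on PIF1 directly or through other factors, and a steady-state comparison such as this one does not separate them. The comparison asks which transcripts are lower in this mutant line in the dark, and it does not show that they need PIF1.

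The median deposited signal lay between 183.4 and 198.1 on the 6 arrays. Replicate 3 of pif1-2 was the outlying array of the first principal component, at 47.9 against -13.2 to -5.23 on the others, and its actin 3-prime to 5-prime signal ratio was 8.07 against 3.53 to 5.17. Replicate 2 of pif1-2 was the outlying array of the third component, at 42.6 against -17.8 to -1.97. The part of these differences in the ratios was not tested, and values without each array are therefore given. The genotype rests on the labels: the title of the series gives the locus as At2g20810, PIF1 is AT2G20180 in the RefSeq gene table, and neither locus had a named probe set. None of the 56 Affymetrix control probe sets with a wild-type mean of 100 or more met the rule. At the 0.414% of the eligible probe sets that met it, none would be likely among so few controls, so nothing is read from this.

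The ratios were spread unevenly below the limit. Their median was 0.431, 34 of the 60 lay above 0.4, and 12 were at most 0.333. The lowest, 0.0398, belonged to an unnamed probe set and the next lowest was 0.248. The rule turned round, with a pif1-2 mean of 100 or more and a ratio of at least 2 in the other direction, was met by 21 of 14770 probe sets (0.142%). Without the condition that groups do not overlap, 93 eligible probe sets (0.631%) had a ratio of at most 0.5. Non-overlap in the lower direction was met at any ratio by 1083 (7.35%).

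**Figure D1:**
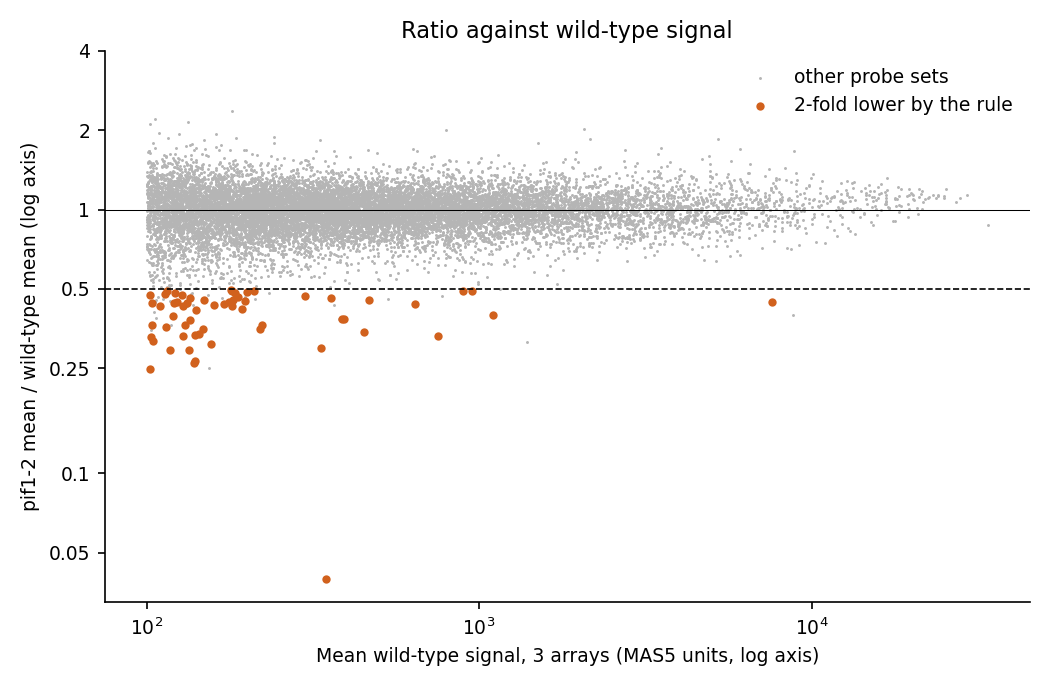
Ratio of the pif1-2 mean to the wild-type mean against the mean wild-type signal (3 arrays per group, MAS5 units, both axes logarithmic) for probe sets with a wild-type mean of 100 or more, with expansin, XTH and plastid-encoded genes left out. Orange points are the 60 probe sets, the dashed line marks 0.5, and grey points under it had overlapping groups; most orange points lie at the dim end, 1 lies alone at 0.0398, and 2 have a wild-type mean of 1000 or more.

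Most of the 60 were dim in wild type as well. Their median wild-type mean was 152, against 399.6 over the eligible probe sets, and 42 of them (70.0%) had a mean under 200, against 23.7% of the eligible probe sets. Only 6 had a wild-type mean of 500 or more and 2 of 1000 or more. Dim MAS5 signals vary more between arrays. For the 44 with a pif1-2 mean between 30 and 100, the coefficient of variation over the pif1-2 arrays had a median of 46.3%, against 42.4% over the 4444 probe sets in that range. The signal level moved with membership, and its part in the ratios was not tested.

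The lowest ratio was that of probe set 265584_at, which has no gene name in the annotation used here. Its signals were 378, 359 and 299.5 on the 3 wild-type arrays and 5.0, 23.7 and 12.5 on the 3 pif1-2 arrays. The mutant mean was 3.98% of the wild-type mean, at 13.7 ± 9.41 (SD, n = 3) against 345 ± 40.9, and the highest pif1-2 value was 0.0791 of the lowest wild-type value. Whether it measures the mutated gene is not known here. The unnamed probe set with the next lowest ratio, 250207_at, had signals of 313, 138.5 and 554 in wild type and 122, 71.9 and 106 in pif1-2. Its ratio of 0.299 rested on widely spread wild-type arrays, and the highest pif1-2 value nearly reached the lowest wild-type value.

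The named genes are described by roles known from general knowledge, grouped after the values were seen and without a share for other genes. AT4G24350, of the phosphorylase superfamily and related to bark storage proteins, had the lowest ratio of all named genes. Its signals were 98.4, 106 and 102 in wild type and 8.7, 45.6 and 21.6 in pif1-2, a mean of 25.3 ± 18.7 against 102 ± 3.70 (24.8% of wild type). The wild-type arrays nearly coincided and the pif1-2 arrays were spread, all well below them. AT2G45630, a D-isomer-specific 2-hydroxyacid dehydrogenase, was at 162, 133 and 125 in wild type and at 40.9, 36.2 and 34.7 in pif1-2. Its pif1-2 arrays were the closest together of these lowest genes, and the mean was 37.3 ± 3.23 against 140 ± 19.5 (26.6%). With each array left out in turn its ratio stayed between 0.253 and 0.289.

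Further enzymes or enzyme-like proteins were brighter or nearer the limit. AT5G04120, a phosphoglycerate mutase-like protein, had signals of 257, 206 and 195 in wild type and 67.4, 102 and 61.9 in pif1-2, and no pif1-2 value came close to the wild-type range (ratio 0.353). AT1G74010, of the strictosidine synthase-like family, stood at 208.5, 210.5 and 212 in wild type and at 146, 32.7 and 131 in pif1-2. There the ratio of 0.490 was carried by 1 array: without pif1-2 replicate 2 it was 0.657, the highest of any of the 60 with 1 array left out. AT1G79470, an inosine monophosphate dehydrogenase of guanine nucleotide synthesis, had a ratio of 0.441, and AT5G21060, a homoserine dehydrogenase-like protein, 0.446. Both exceeded 0.5 when certain single arrays were left out, at up to 0.566 and 0.511.

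**Figure D2:**
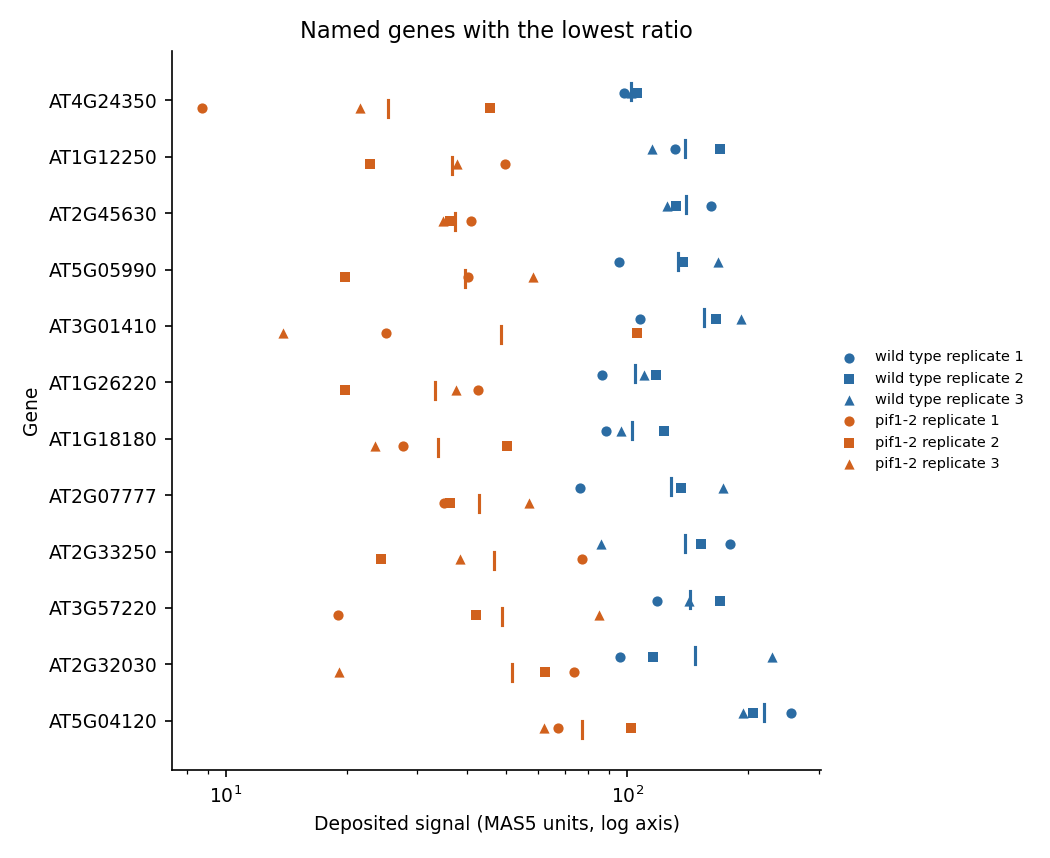
Deposited signal (MAS5 units, logarithmic axis) of the 12 named genes with the lowest ratio, each point 1 array, marker shape the replicate number and vertical bars the group means (n = 3). Blue wild-type points lie to the right of orange pif1-2 points in every gene, as the rule requires; the gap is wide for AT2G45630 and nearly closed for AT3G01410, whose pif1-2 replicate 2 value was 0.983 of the lowest wild-type value.

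A pair of acetyltransferases of the GNAT family, which transfer acetyl groups to amines or proteins, were among the lowest ratios. AT1G26220 had signals of 86.4, 118 and 110 in wild type and 42.5, 19.8 and 37.5 in pif1-2, a mean of 33.3 ± 11.9 against 105 ± 16.4. Every pif1-2 value was less than 0.5 of every wild-type value. AT2G32030 was at 96.2, 116 and 229 in wild type and at 73.7, 62.5 and 19.1 in pif1-2, and here the replicate 3 arrays held both the highest wild-type and the lowest pif1-2 value. Its ratio of 0.352 was 0.487 without wild type replicate 3.

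A thylakoid gene was also among them. AT1G12250 encodes a pentapeptide-repeat protein of the thylakoid lumen, the inner space of the photosynthetic membrane, which dark-grown plastids build only in part. Its signals were 132, 171 and 115 in wild type and 49.5, 22.8 and 37.6 in pif1-2, so that the mutant mean of 36.6 ± 13.4 was 26.3% of the wild-type mean of 139 ± 28.4. The groups were well apart on all arrays, and the ratio ranged from 0.217 to 0.313 with 1 array left out. LIL3:1, a light-harvesting-like protein needed for chlorophyll synthesis, lay just outside the limit at a ratio of 0.520, and its groups did not overlap. It was picked after its values were seen, and 7.35% of the eligible probe sets did not overlap in the lower direction.

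Genes linked to the cell wall, other than the expansin and XTH genes left out, were represented by AT4G36430 and AT5G42860. AT4G36430, a class III peroxidase of the secreted kind that acts on wall phenolics, had signals of 177, 267 and 220 in wild type and 101, 73.5 and 68.1 in pif1-2. The means were 222 ± 45.0 and 80.8 ± 17.5, a ratio of 0.365. AT5G42860, a companion of cellulose synthase protein that links the cellulose synthase complex to microtubules, was at 657, 741.5 and 529 in wild type and at 278, 361.5 and 209 in pif1-2. Its lowest wild-type and highest pif1-2 arrays were 529 and 361.5, and the ratio of 0.440 stayed at most 0.498 with any array left out.

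Sulfur supply was represented by AT1G04770, known as SDI2, a tetratricopeptide-repeat protein of the kind induced by sulfur deficiency. Its signals were 453.5, 392 and 330 in wild type and 159, 140.5 and 155 in pif1-2. The pif1-2 arrays had a mean of 151.5 ± 9.68 (SD, n = 3), every one was less than 0.5 of every wild-type value, and the ratio was 0.386. A list of 18 sulfur starvation genes had a named probe set for 1 other gene, BGLU28, a glucosidase, which ran at 63.9 in wild type and 74.1 in pif1-2. With 2 of 18 genes measured the list says little about sulfur nutrition as a whole.

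The brightest named gene of the 60 was AT5G57760, a locus for which no role is given here. Its signals were 1137, 1167 and 988 in wild type and 349, 449 and 508 in pif1-2. The mean of 435 ± 80.5 was 39.7% of the wild-type mean of 1097 ± 95.6, and the highest pif1-2 array was 0.514 of the lowest wild-type array. AT5G10770, an aspartic protease, was at 478, 454 and 462 in wild type and at 318, 178 and 135 in pif1-2, with close wild-type arrays and a spread mutant group (ratio 0.453, but 0.534 without pif1-2 replicate 3). AT5G38980 had signals of 210.0, 384 and 478 in wild type and 197.5, 205 and 92.4 in pif1-2. In that gene the wild-type replicate 1 array nearly met the mutant values, and its ratio of 0.461 was 0.563 without pif1-2 replicate 3.

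**Figure D3:**
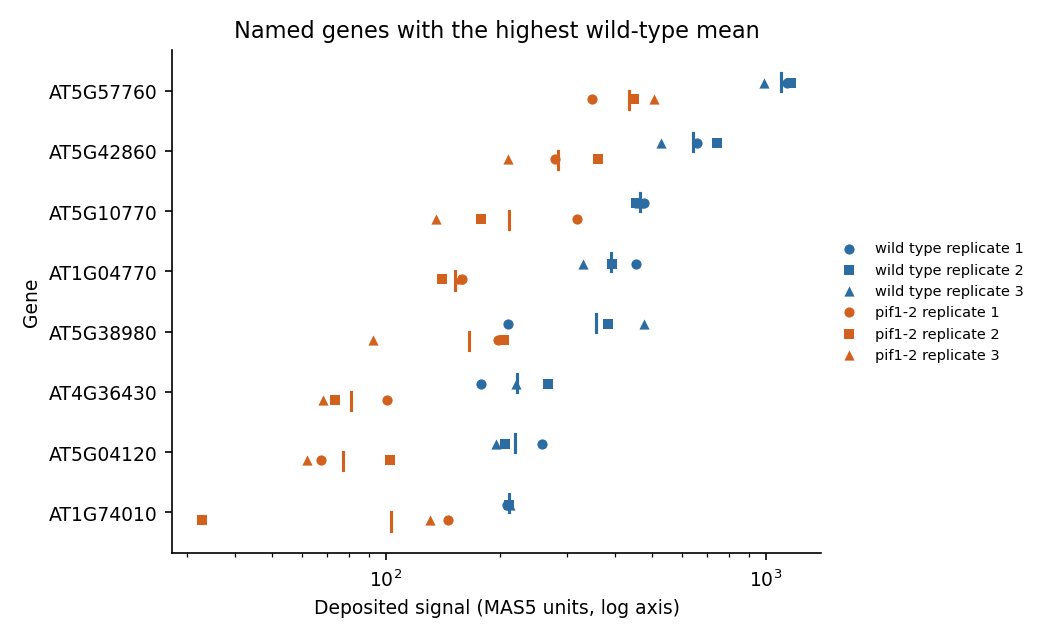
Deposited signal (MAS5 units, logarithmic axis) of the 8 named genes with the highest wild-type mean, each point 1 array, marker shape the replicate number and vertical bars the group means (n = 3). The groups are clearly apart for AT5G57760, AT1G04770 and AT5G04120, and nearly touch for AT5G38980.

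The other named genes among the 12 lowest ratios had wild-type means from 103 to 156, close to the signal minimum. AT4G24350 and AT1G26220, described above, were at 102 and 105 and so just as close to it. AT3G01410 was at 108, 167 and 192 in wild type and at 25.1, 106 and 13.9 in pif1-2, with pif1-2 replicate 2 almost at the level of wild type replicate 1. AT5G05990 had signals of 95.6, 137.5 and 168 in wild type and 40.1, 19.8 and 58.4 in pif1-2, which left a clear gap. The same held for AT1G18180, at 88.7, 124 and 96.8 against 27.6, 50.2 and 23.5.

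AT2G33250 ran at 180, 153 and 85.9 in wild type and 77.4, 24.4 and 38.3 in pif1-2, and its groups came within 0.901 of each other. AT3G57220 had signals of 118.5, 170 and 142 in wild type and 19.0, 42.0 and 84.9 in pif1-2. AT2G07777 was at 76.1, 136 and 173 in wild type and at 35.0, 36.1 and 57.1 in pif1-2. This locus lies in the stretch of chromosome 2 that carries a copy of the mitochondrial genome, so its probe set may also read mitochondrial transcripts, and its gene assignment is uncertain.

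Nearest to the limit on the inside were AT3G17640, probe set 261768_at and DEP, with ratios of 0.497, 0.493 and 0.493. DEP, or DESPIERTO, is a RING-finger protein needed for seed dormancy and abscisic acid sensitivity. Its signals were 112, 106 and 128 in wild type and 25.8, 92.3 and 52.3 in pif1-2, and without pif1-2 replicate 1 its ratio was 0.628. AT3G17640 was at 174.5, 195 and 170 in wild type and at 145, 43.2 and 79.5 in pif1-2, and 261768_at at 1233, 788 and 827 against 571, 490 and 344. Just outside were 252607_at, 264867_at and AT2G39795, with ratios of 0.501, 0.505 and 0.507 and no overlap. The wild-type signals of 252607_at were 1376, 1215 and 883, and those in pif1-2 were 735, 600.0 and 405. Probe set 264867_at was at 137, 182 and 103 against 73.3, 64.8 and 75.4 in pif1-2. AT2G39795 was at 77.4, 124.5 and 149 against 58.7, 73.5 and 45.7, with its wild type replicate 1 array close to the mutant range. The values on either side of the limit differ by less than the spread between arrays.

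The remaining named genes had ratios from 0.359 to 0.484 and wild-type means from 102 to 181. They were AT3G44380, AT2G40800, AT3G44510, AT3G01980, AT5G17760 (an AAA-type ATPase), AT1G48610, AT3G10120, AT2G37670, AT3G07530, AT3G04650 and AT1G20520, together with AT1G79470 and AT5G21060 described above. Of these, AT3G44380, AT2G40800 and AT3G44510 stayed at or below 0.5 whichever array was left out. Among the unnamed probe sets the brightest of all 60, 248197_at, was singled out after its values were seen. Its signals were 6500.5, 9396 and 6981 in wild type and 3327, 4206 and 2687 in pif1-2, so the groups were well apart at a high signal (ratio 0.447, and 0.505 without wild type replicate 2). The probe set with several gene names, 263063_s_at, averaged 34.7 ± 23.8 (SD, n = 3) in the mutant against 118 ± 39.0, a ratio of 0.294. Apart from those described, the unlisted probe sets had ratios from 0.333 to 0.492 and wild-type means from 110.0 to 897.

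The rule requires lower signals on all 3 mutant arrays, and centring on the wild-type mean puts the wild-type arrays near 0, so only the size on each array is described here. Relative to the wild-type mean, the median of the 60 on the log2 scale was -1.23, -1.33 and -1.46 on pif1-2 replicates 1, 2 and 3, and -0.048, 0.046 and -0.070 on the 3 wild-type arrays. The median over all eligible probe sets was between -0.045 and 0.0041 on every array. Of the 60, 38 were at or below 0.5 of the wild-type mean on pif1-2 replicate 1, and 46 on each of the other two. The lowest mutant value came from replicate 1 in 14, replicate 2 in 22 and replicate 3 in 24 (40.0%). Replicate 3 also gave the lowest mutant value for 39.7% of the eligible probe sets.

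**Figure D4:**
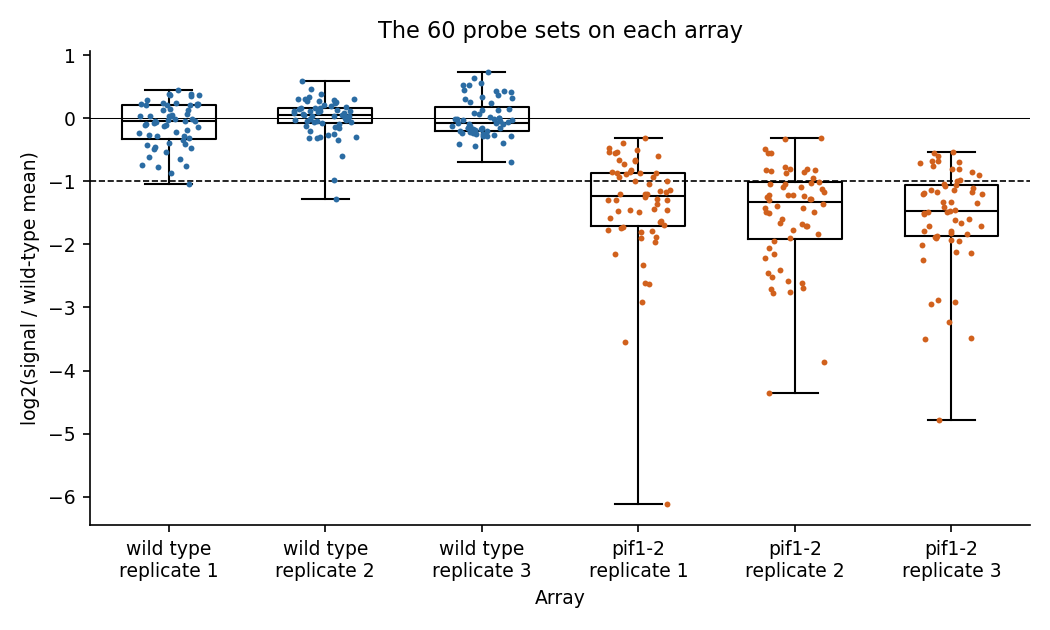
Signal of the 60 probe sets on each array as log2 of the ratio to the wild-type mean of the same probe set, each point 1 probe set, with boxes for the quartiles, a line for the median and whiskers to the extremes. The medians are near 0 on the wild-type arrays and -1.23, -1.33 and -1.46 on the pif1-2 arrays; the dashed line marks a ratio of 0.5.

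Single arrays decided many of the memberships. The ratio stayed at or below 0.5 whichever array was left out in 28 of the 60, of which 19 were named. It did so in 45 without pif1-2 replicate 3 and 47 without pif1-2 replicate 2, and in 53 to 55 without any 1 of the other arrays. These counts use the ratio alone and not the signal minimum. Among the 28, AT1G26220, AT1G18180, AT3G44380 and AT2G40800 fell under the wild-type minimum of 100 without 1 of the wild-type arrays. By the whole rule, 51 of the 60 remained without wild type replicate 2, against 55 by the ratio. In 6 of the 60 the closest arrays of the groups were at least 2-fold apart (6 of all eligible probe sets, 0.0407%): 265584_at, AT2G45630, AT1G12250, AT4G24350, AT1G04770 and AT1G26220. At the other end, 7 of the 60 had a highest pif1-2 value above 0.9 of the lowest wild-type value. With 5 arrays the rule itself took 114 probe sets without wild type replicate 1, 136 without pif1-2 replicate 1 and 100 without pif1-2 replicate 2. It took 81 to 89 without any 1 of the others. The means and the overlap condition then rest on fewer arrays, and the part of each in these counts was not tested.

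**Figure D5:**
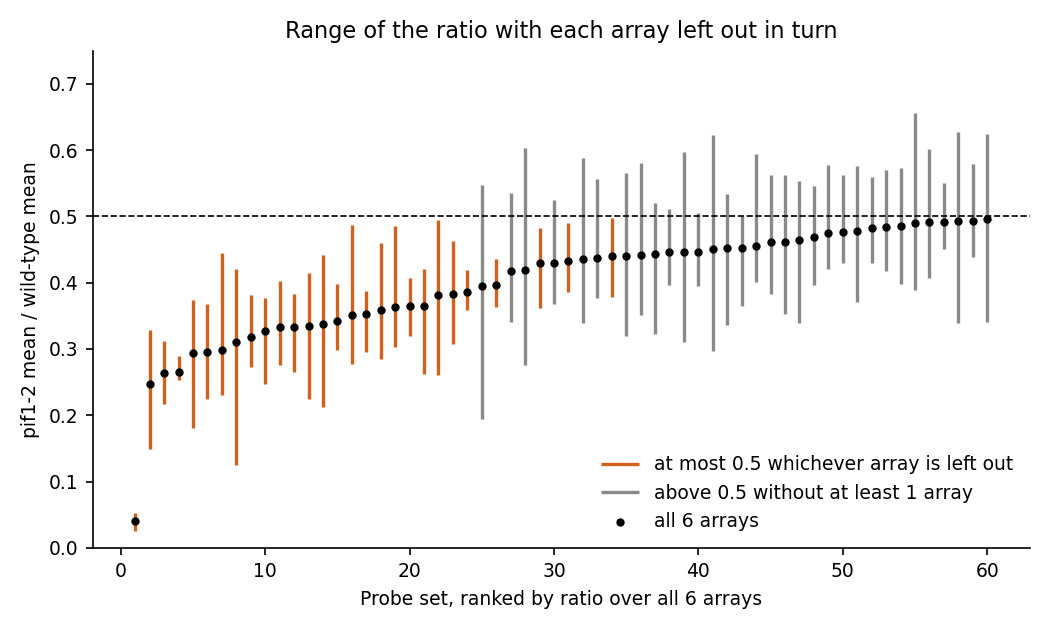
Ratio of the pif1-2 mean to the wild-type mean for the 60 probe sets, ranked by the ratio over all 6 arrays (black points), with vertical lines from the lowest to the highest ratio when each array was left out in turn. Orange lines (28 probe sets) stay at or below 0.5 and grey lines cross it, up to 0.657; nearly all probe sets with a ratio under 0.4 are orange.

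A limma fit over all 17695 probe sets with a mean scaled signal of at least 50 called 2 as lower in pif1-2 (0.0113%) and 0 as higher at an adjusted p under 0.05, and at an unadjusted p under 0.05 it had 772 lower and 585 higher. Both calls, 265584_at and AT5G57760, were among the 60. All 60 were in the fit, and the limma adjusted p of the other 58 ran from 0.0607, for AT1G04770, to 0.637. Since the rule used the same contrast, nothing is read from these counts. The calls among the 60 were 0 without wild type replicate 2 or 3, 1 without any 1 pif1-2 array and 2 without wild type replicate 1. Over all probe sets they were 0, 1 and 7 in the same order.

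The 34 named genes were spread over the 5 nuclear chromosomes, with 9 on chromosome 1, 6 on 2, 9 on 3, 2 on 4 and 8 on 5. The 7951 eligible named probe sets numbered 2068, 1200, 1597, 1150 and 1906 on the same chromosomes. The share of the 34 was 5.88% against 14.5% on chromosome 4 and 26.5% against 20.1% on chromosome 3. These are small counts, the differences were not tested, and nothing is read from them. None was a neighbour of another in the gene table, and the closest were 12 protein-coding genes apart.

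Of the 34 named genes among the 60, only SDI2 was on any of 12 gene lists for pathways near PIF1 or common in seedlings. The lists were matched by name, so the rest of the 60 could not be placed on them. They measured 27 of their 158 genes. Of the 24 list genes tested, limma called 0 over all probe sets. At an unadjusted limma p under 0.05, 6 of them were lower and none was higher, beside 4.36% of all probe sets lower. The 6 were SDI2, chosen by the rule on the same contrast, EXO, and 4 genes of the chlorophyll and heme list. Nothing is read from this count. The chlorophyll and heme list had 9 genes tested, with a median log2 fold change of -0.28 beside 0.00095 over all probe sets, none of its genes was among the 60, and their ratios ran from 0.520 (LIL3:1) to 1.09 (CHLM). The auxin list had 4 tested with a median of 0.081 and the cold and dehydration list 3 with a median of 0.27. FHL of the phytochrome list was at -0.31 and EXO of the sugar and dark list at -0.38. The lists for heat shock, nitrate and iron had no named probe set and were not analysed here.

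Markers of seedling parts were measured for 9 of 46 genes, and none was at 0 or among the 60. Root markers were present: the summed signal of EXPA7, EXPA18 and PER7 (3 of 12 markers) ran from 425 to 880 in wild type and from 412 to 848 in pif1-2. Shoot and cotyledon markers, LHCB4.1, PSAN, RCA and PORB (4 of 7), summed to 25463 to 31496 and 22711 to 31562. Their pif1-2 to wild-type ratios went both ways, at 1.09, 1.29, 0.841 and 0.734 in that order. The stomatal lineage factors SPCH and FAMA (2 of 6 epidermis markers) summed to 116 to 125 and to 130 to 174. The ranges of root and shoot sums overlapped between groups and those of the epidermis did not. Each epidermis marker alone did overlap: FAMA at 90.6 to 106.4 in wild type and 96.3 to 140.2 in pif1-2, SPCH at 16.7 to 34.0 and 33.8 to 46.3. SPCH was dim and not in the limma fit, so nothing is read from the epidermis sums. The vascular and seed markers had no named probe set.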

How the data were processed

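Total RNA of whole seedlings was hybridised to 6 one-colour ATH1 arrays. The deposited values are a linear intensity per probe set, made by the authors with MAS5, per the submitters' processing notes, which give no version or settings. Of 22810 probe sets, 64 Affymetrix controls were set aside. The rule was applied to the signals as deposited. Names came from the platform annotation (1 gene for 13513, several for 503, 8730 not listed) and RefSeq TAIR10.1, used for names, chromosomes and gene order only. Roles are general knowledge, since the tables give no gene products.

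For the fit, arrays were scaled to a 2% trimmed mean of 500, 5051 probe sets with a mean under 50 were left out, log2(signal + 16) was taken, and limma 3.58.1 in R 4.3.3 (lmFit, eBayes with trend, two-sided, Benjamini-Hochberg over 17695 probe sets) compared pif1-2 with wild type. The fit was tested on simulated data. The number of arrays limits the precision.

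The members and lists were chosen with earlier results of these data known. Values per array were given for the 12 named genes with the lowest ratio, the 8 with the highest wild-type mean, the 3 probe sets on either side of the limit, the list member and the 2 unnamed probe sets with the lowest ratio. The tables hold no product names, so no further genes were picked for display by shared family words, and the planned promoter comparison was not run. Samples were grouped by their titles. Alternatives covered the signal minimum, scaling, averaging, overlap, pseudocount, filter, variance model, array weights, the replicate block and left-out arrays.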

Additional observations from a re-analysis of the deposited data

How the results depend on the processing

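The count of 60 depended on the limits of the rule: it was 130 with a wild-type minimum of 50, 18 with a minimum of 200 and 92 when groups could overlap. It stayed within 1.5 times under median centring (59, of which 57 shared), quantile normalization (60, 58 shared), ratios of medians (56, 46 shared) and of geometric means (72, 60 shared), and ran from 81 to 136 without 1 array. The median log2 ratio of the 60 was -1.21. It was -1.35 with geometric means, -1.35 in limma with a pseudocount of 1 and -0.81 with 64, and -1.38 to -1.24 without 1 array. The number of limma calls was 1 over all probe sets, and 1 among the 60, with median centring, quantile normalization, no filter or no intensity trend. With array weights it was 8 and 5. Without 1 array it ran from 0 to 7 and from 0 to 2. The 0 occurred without wild type replicate 2 (427 lower and 389 higher at an unadjusted limma p under 0.05) and without wild type replicate 3 (483 and 429). The cause was not tested. The labels number the replicates alike, and whether the numbers pair the arrays is not known here. Deviations from the group means correlated at 0.25, 0.099 and 0.088 for numbers 1, 2 and 3, and at -0.158 to 0.054 between unlike numbers. Every array did correlate best with its own number, which is a hint from the data and not from the design. With the replicate block limma called 45 probe sets, 12 of them among the 60, and the rule on within-number ratios took 104 with a median log2 ratio of -1.35 for the 60. Of 266 values for 19 named genes under 14 alternatives, 257 moved by less than the spread between arrays. That spread was wide enough to pass large shifts, such as AT4G24350 from -2.01 to -0.92 in limma with a pseudocount of 64. The 9 that moved more were limma values with a pseudocount of 64 or 16, such as AT1G12250 from -1.93 to -1.02 with 64. For most of these alternatives the rule's non-overlap fixes the sign, so the count of 257 does not show how firm the ratios are. Of the 60, 42 had a wild-type mean under 200, and the part of the signal level in the ratios was not tested.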

Other observations

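COR15A, a cold-response gene whose product protects chloroplast membranes, had a pif1-2 to wild-type ratio of 0.373 but a wild-type mean of 46.2, below the signal minimum, with 62.8, 17.8 and 58.1 in wild type and 16.8, 5.7 and 29.3 in pif1-2. It was picked after its values were seen, its groups overlapped, and it was not in the limma fit. Of the 4 genes measured on its list only COR15A was lower in pif1-2, with ratios of 1.18 for COR15B and 1.02 for LTI30. COR47, a dehydrin of the same list, was at 18220 in wild type and 22221 in pif1-2, and limma gave it a change of 0.27 ± 0.14 (SE) on the log2 scale at an adjusted p of 0.701.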
